A study of Homo sapiens with 34 samples.

Results

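The MYC locus was described by every peak whose summit, the position of highest signal in the peak, lay on chromosome 8 within 2 Mb of the MYC transcription start site (TSS). The start used is position 127735434 of hg38, the first of 15 transcripts in GENCODE release 44 (the canonical transcript starts at 127736231), and MYC (ENSG00000136997) spans chr8:127735434-127742951 on the plus strand. The rule found 577 peaks in 8 peak lists, which hold 290228 peaks in all. They fell into 285 separate sites when summits less than 500 bp from their neighbour were joined. Summits of different lists over 500 bp apart can be joined through a summit between them. Sites shared by 2 lists can therefore outnumber the shared summits. The lists held 56 (RBPJ, MB157 iEV), 56 (RBPJ, MB157 iSOX2), 97 (RBPJ, MB157R iEV), 101 (RBPJ, MB157R iN1-ICD), 105 (SOX2, MB157R iEV), 4 (SOX2, MB157R iN1-ICD), 158 (HA-SOX2, MB157 iSOX2) and 0 (HA control, MB157 iEV) of these peaks.

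ChIP-seq, the sequencing of DNA pulled down with an antibody, located RBPJ and SOX2 in MB157, a human triple-negative breast cancer line whose growth depends on NOTCH, and in MB157R. MB157R cells were made from MB157 by 25 weeks in 1 µM of the γ-secretase inhibitor (GSI) LY3039478 (crenigacestat). All cells carried a lentiviral doxycycline-inducible vector, received 1 µg/ml doxycycline for 72 h and were fixed with both DSG and formaldehyde. The vector was empty (iEV) in both lines, encoded HA-tagged SOX2 in MB157 (iSOX2), and carried active NOTCH1 with an HA tag in MB157R (iN1-ICD). The 34 libraries were 22 immunoprecipitations in 8 groups, each of 3 libraries except the HA control with 1, and 12 inputs in 4 groups. Each group was pooled before peaks were called, so a condition is 1 list, there is no spread between replicates, and intervals below cover counting error only. Each line is 1 cell line, so what belongs to GSI resistance and what belongs to this line cannot be told apart.

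MYC encodes a transcription factor that drives growth and proliferation, and it is a direct target of NOTCH in several cancers. It lies in a region with very few protein-coding genes, and much of its control comes from enhancers far on either side, many of them inside the long non-coding RNA (lncRNA) genes PCAT1, CASC8, CCAT2, CASC11 and PVT1. RBPJ is the DNA-binding partner of the NOTCH intracellular domain. SOX2 is a stem cell transcription factor of the HMG box family. In the window GENCODE places only 3 protein-coding genes, LRATD2, POU5F1B and MYC, beside 26 lncRNA genes, so most of the peaks lay in introns of lncRNA genes or between genes.

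**Figure D1:**
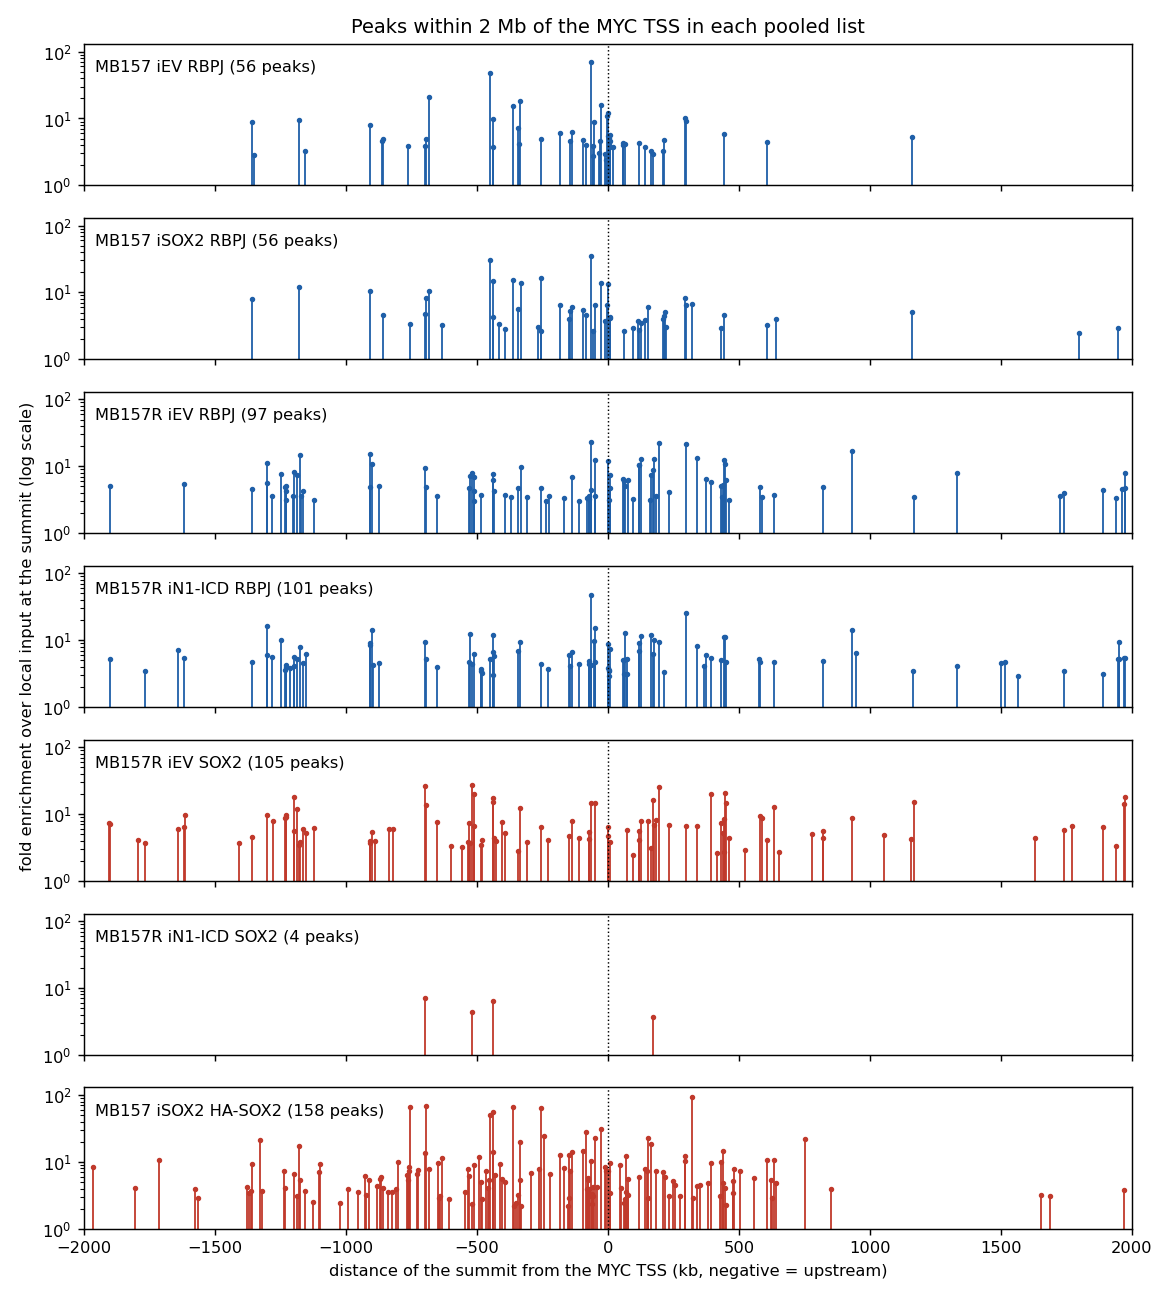
Each panel is 1 pooled peak list, the x axis is the distance of the summit from the MYC TSS in kb, and the height of each line is the fold enrichment over local input on a log scale (RBPJ in blue, SOX2 and HA-SOX2 in red). The highest RBPJ peak of all 4 RBPJ lists stood 66 kb upstream, and the SOX2 list of MB157R iN1-ICD held 4 peaks against 105 in MB157R iEV.

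The number of peaks was compared with that in the same window around the TSS of each of 19970 protein-coding genes. SOX2 in MB157R iEV had 105 peaks around MYC against a median of 61 per window, more than around 91.5% of the genes. RBPJ in MB157R iN1-ICD had 101 against a median of 69 (more than around 70.7% of the genes), RBPJ in MB157R iEV 97 against 88 (56.0%) and RBPJ in MB157 iEV 56 against 46 (59.0%). For RBPJ (56 against 64) and HA-SOX2 (158 against 164) in MB157 iSOX2 the count around MYC was below the median. The locus was thus crowded for SOX2 of the resistant cells, and near the middle of all genes for RBPJ of the parental cells. Windows of neighbouring genes overlap, and these percentages are a description.

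RBPJ and HA-SOX2 peaks were densest within 100 kb of the gene. In MB157 iEV, RBPJ had 13 summits in the 100 kb upstream of the TSS and 10 in the 100 kb downstream, and 1 beyond 1000 kb downstream. In MB157R iEV, RBPJ had 7 and 9 summits in those flanks and 9 beyond 1000 kb downstream, and 18 lay more than 1000 kb upstream against 4 in MB157 iEV. HA-SOX2 lay mostly upstream, with 105 summits against 53 downstream, and only 3 of its summits were beyond 1000 kb downstream, where SOX2 of MB157R iEV had 10. PCAT1, a long gene of the upstream flank, held 59 of the HA-SOX2 summits and 31 of the 105 SOX2 summits, and PVT1, the lncRNA gene just downstream of MYC, held 33 and 22.

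The fold enrichment that the authors deposited is the signal at the summit over the background the peak caller expected there from the input. Fold and p together gave back the number of fragments at each summit and that local background. Around MYC the local background was high in all 7 lists with peaks. Its median over the summits was between 2.16 and 2.66 times the genome background of the same list, against 1.24 to 1.38 times over all peaks in the 6 large lists and 1.56 times in the SOX2 list of MB157R iN1-ICD. In each of the 6 large lists the median around MYC was above the 90th percentile of all peaks, which was 2.00 to 2.41. The part of this background in the results was not tested. It was 2.59 and 2.66 in the RBPJ lists of MB157 iEV and iSOX2 and 2.36 and 2.17 in those of MB157R iEV and iN1-ICD, so a fold in MB157R stands over a lower background. Fragments are therefore given beside folds, scaled where lists are compared by the genome background of each list (1.60 to 2.24 fragments in the 7 lists with peaks here).

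**Figure D2:**
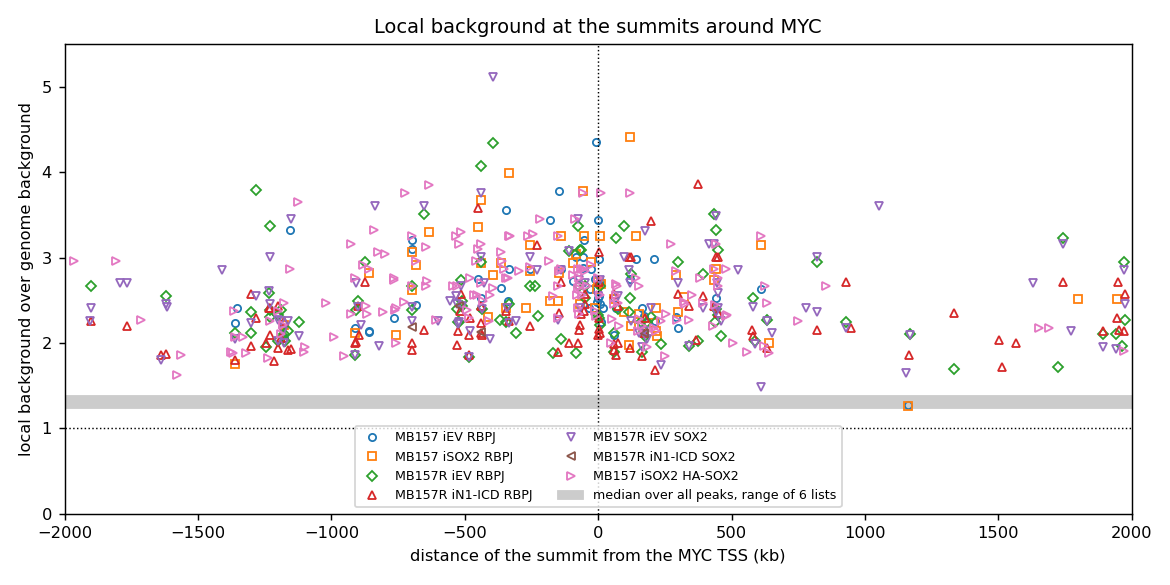
Each point is a peak within 2 Mb of MYC, with the distance from the MYC TSS in kb on the x axis and, on the y axis, the local background at the summit divided by the genome background of the list. Nearly all points lie above the grey band (1.24 to 1.38), which spans the medians over all peaks of the 6 large lists.

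At MYC itself, RBPJ had a summit 0.473 to 0.546 kb downstream of the first TSS, in an annotated exon of MYC and upstream of the canonical start, in all 4 lists. The folds were 12.0 in MB157 iEV (77 fragments, 95% Poisson interval 60.8 to 96.2), 13.3 in MB157 iSOX2 (86 fragments), 11.8 in MB157R iEV (61 fragments) and 8.77 in MB157R iN1-ICD (40 fragments, 28.6 to 54.5). These are strong promoter peaks: they exceeded 95.2%, 96.3%, 90.7% and 89.8% of the RBPJ promoter peaks of all protein-coding genes in the same lists. The folds of MB157 iEV and MB157R iEV were nearly equal, but the scaled fragments of MB157R iEV were 0.697 times those of MB157 iEV (0.490 to 0.989). The local background there was 3.44 and 2.33 times the genome background in the same order. In MB157R iN1-ICD the scaled fragments were 0.475 times those of MB157 iEV (0.316 to 0.705), and the local background was 2.09 times the genome background.

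SOX2 in MB157R iEV had its MYC promoter summit 0.074 kb upstream of the first TSS (chr8:127734724-127736444, fold 6.33, 37 fragments). That is over 500 bp from the RBPJ summit, so the pair did not count as co-localized although the peak regions overlapped. HA-SOX2 in MB157 iSOX2 had its summit 0.481 kb downstream, close to RBPJ, in a broad region (chr8:127732489-127739298, fold 7.36, 52 fragments). No SOX2 peak was called at the MYC promoter in MB157R iN1-ICD, and none in the HA control. The HA control was 1 library with 77 peaks in all. Its genome background was 0.524 fragments against 2.24 for HA-SOX2, so a missing peak there is limited by depth. Around the gene body, RBPJ of MB157 iEV had further summits 2.30 kb (fold 5.11) and 4.32 kb (fold 4.32) downstream of the TSS. These were not particular to that list. In MB157 iSOX2 the promoter region (chr8:127734091-127740997) covered both. In MB157R iEV the promoter region (chr8:127733941-127739370) covered the first, and a summit lay 4.70 kb downstream. MB157R iN1-ICD had summits 2.35 and 4.06 kb downstream. A stronger RBPJ summit of MB157 iEV lay 2.70 kb upstream in an intron of CASC11 (fold 10.8, 6.45 in iSOX2), and neither list of MB157R shared it.

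The strongest RBPJ site of the locus lay 66.3 kb upstream of MYC, in the lncRNA gene ENSG00000286010, in an intron except for the MB157R iEV summit, which lay in an exon (chr8:127668424-127670134 in MB157 iEV). It had the highest fold of the window in all 4 RBPJ lists. The summit held 420 fragments in MB157 iEV (fold 70.6), 207 in MB157 iSOX2 (fold 34.6), 152 in MB157R iEV (fold 23.1) and 232 in MB157R iN1-ICD (fold 47.8). Parental cells with the empty vector stood highest and resistant cells lowest, with both induced lines between them. After scaling, iSOX2 had 0.388 times the fragments of MB157 iEV (0.327 to 0.460), MB157R iEV 0.319 times (0.263 to 0.384), and iN1-ICD 1.59 times those of MB157R iEV (1.29 to 1.96). SOX2 was called at the same place in MB157R iEV (fold 14.7, 83 fragments), as was HA-SOX2 in MB157 iSOX2 (fold 10.3, 71 fragments). None of the 6 summits had an RBPJ, SOX or AP-1 motif, as spelled out below, within 100 bp.

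Several other strong RBPJ sites of the parental cells lay 257 to 683 kb upstream of MYC, in PCAT1 and CASC8. The second highest RBPJ peak of MB157 iEV was 452 kb upstream, in an intron of PCAT1 (chr8:127283199-127284072, fold 47.9, 258 fragments). It was fold 30.0 (234 fragments) in MB157 iSOX2, was not called in MB157R iEV, and was fold 5.23 (37 fragments) in MB157R iN1-ICD. At the depth of MB157R iEV the 258 fragments would correspond to 293, while the smallest peak called in the window in that list held 14. HA-SOX2 stood at the same site with fold 50.5 (400 fragments), but SOX2 in MB157R iEV was not called there.

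Other parental RBPJ sites had no peak in either list of MB157R. The site 683 kb upstream had 102 fragments in MB157 iEV (fold 20.9) and 71 in iSOX2 (fold 10.4), a scaled ratio of 0.549 (0.399 to 0.750). The site 364 kb upstream, in introns of CASC8 and POU5F1B, had 80 fragments in iEV (fold 15.5) and 106 in iSOX2 (fold 15.3), and HA-SOX2 stood there with fold 66.9. The site 28.2 kb upstream, in CASC11, had 87 fragments in iEV (fold 15.7) and 97 in iSOX2 (fold 14.0), with HA-SOX2 at fold 31.6. RBPJ was seen in both parental lists and in neither resistant list at 15 of the 170 RBPJ sites, a share that was not computed over all chromosomes. Among them, induced HA-SOX2 was high at the sites 364 and 28.2 kb upstream, and its fold was 7.85 at the site 683 kb upstream.

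The site 334 kb upstream, in an exon of the lncRNA gene CCAT2, was called in 6 lists (chr8:127400711-127402338 in MB157 iEV). RBPJ had 102 fragments there in MB157 iEV (fold 18.4), 125 in iSOX2 (fold 13.8), 52 in MB157R iEV (fold 9.68) and 45 in iN1-ICD (fold 9.27). The scaled fragments of MB157R iEV were 0.449 times those of MB157 iEV (0.315 to 0.633), so RBPJ was lower in the resistant line at this site. SOX2 had fold 12.4 in MB157R iEV, and HA-SOX2 had fold 20.1.

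**Figure D3:**
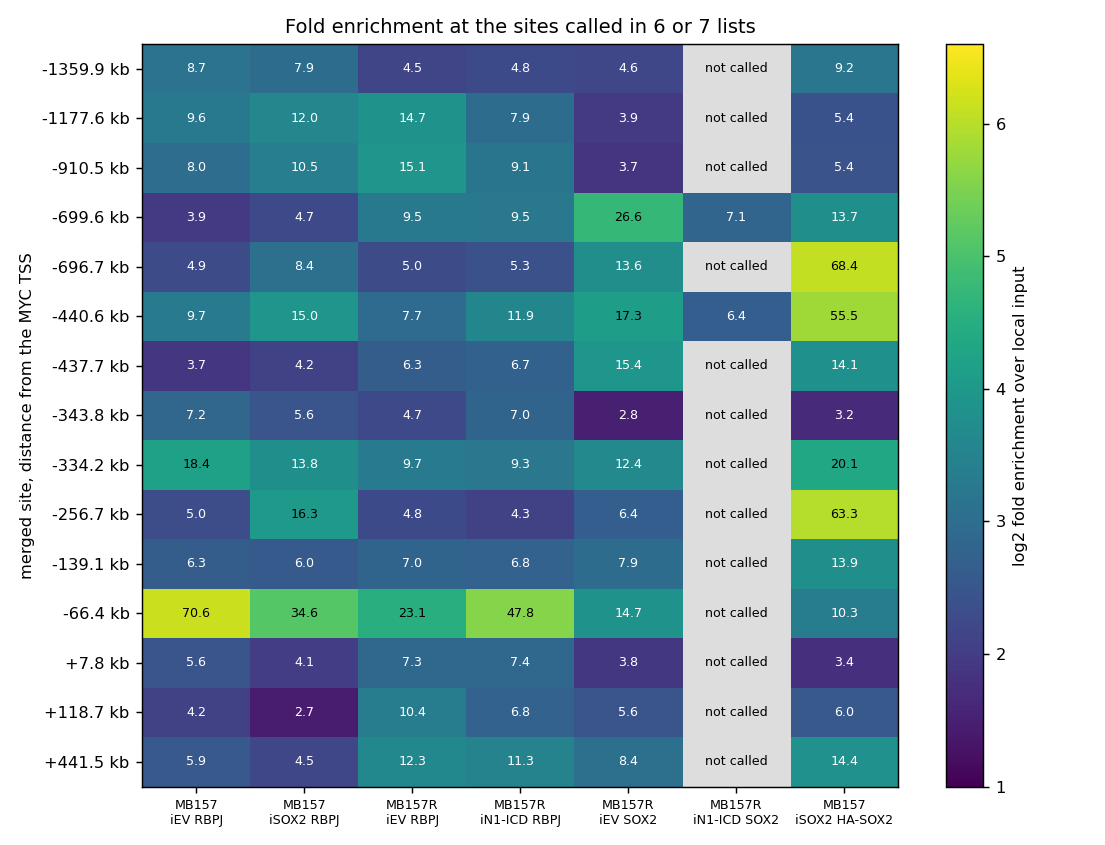
Rows are the 15 sites called in 6 or 7 lists, ordered by distance from the MYC TSS, and columns are the 7 lists with peaks in the window. Cells show the fold enrichment over local input (colour on a log2 scale, grey where no peak was called), with the RBPJ site 66.4 kb upstream brightest in the RBPJ columns and the sites 257, 441 and 697 kb upstream brightest for HA-SOX2.

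Of the 285 sites, 157 were called in 1 list and 128 in more than 1. RBPJ was called at 170 sites and SOX2 or HA-SOX2 at 224, and 109 sites had both. RBPJ stood in all 4 RBPJ lists at 18 sites, and 15 sites were called in 6 or 7 lists. The sites 700 and 441 kb upstream, in PCAT1, were the ones called in all 7 lists with peaks. The same counts were not made over all chromosomes, so they describe the locus and do not set it apart.

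Downstream of the MYC promoter the highest RBPJ folds were those of MB157R. The highest of them lay in introns of PVT1, a gene often amplified together with MYC in tumours. At 300 kb downstream (chr8:128034813-128035688 in MB157R iEV) RBPJ held 40 fragments in MB157 iEV (fold 9.12), 37 in iSOX2 (fold 6.55), 135 in MB157R iEV (fold 21.4) and 138 in iN1-ICD (fold 25.2). The scaled ratio of MB157R iEV to MB157 iEV was 2.97 (2.07 to 4.34), the largest of the 23 sites that both lists share. At 196 kb downstream (chr8:127931273-127932505) RBPJ was called only in MB157R, with 114 fragments in iEV (fold 22.2) and 65 in iN1-ICD (fold 9.41), and SOX2 of MB157R iEV lay beside it with 142 fragments (fold 25.0). HA-SOX2 was not called there.

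Further away, a site 931 kb downstream in an intron of CCDC26, a lncRNA gene, had RBPJ in MB157R iEV (fold 17.1) and iN1-ICD (fold 14.1) and SOX2 (fold 8.74), and no peak in MB157. A site 1301 kb upstream, in no gene, had RBPJ in MB157R iEV (fold 11.1) and iN1-ICD (fold 16.3, scaled ratio 1.59, 1.13 to 2.26). No SOX2 summit lay within 500 bp, but the region of a SOX2 peak of MB157R iEV (fold 9.66) overlapped it. A site 48.1 kb upstream, in an exon of CASC11, had RBPJ at fold 12.5 and 15.1 in these lists and SOX2 at fold 14.4. Altogether 94 RBPJ sites were called in lists of MB157R alone, 43 in lists of MB157 alone and 33 in both lines. Of the RBPJ sites these were 55.3%, 25.3% and 19.4%, against 46.3%, 27.0% and 26.7% of the RBPJ sites of all chromosomes. SOX2 of MB157R iEV was at 57 of the 94 (60.6%, against 45.0% over all chromosomes), at 3 of the 43 (6.98%, against 3.75%) and at 21 of the 33 (63.6%, against 39.4%). HA-SOX2 was at 17 (18.1%, against 14.0%), 23 (53.5%, against 40.1%) and 24 (72.7%, against 50.9%) of them. SOX2 and HA-SOX2 were each mapped in 1 of the lines, and the difference between these counts was not tested. Lists made from the same cells share their inputs.

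Whether RBPJ and SOX2 sat together around MYC was asked by the share of summits with a summit of the other protein less than 500 bp away. Of the 97 RBPJ summits in MB157R iEV, 69 had a SOX2 summit nearby (71.1%, with an exact binomial interval of 61.0 to 79.9%), against 46.4% of all RBPJ summits of that list. Seen from SOX2, 69 of 105 summits (65.7%, 55.8 to 74.7%) had RBPJ nearby, against 57% of all SOX2 summits. The pairs were close, with a median of 79 bp between summits. RBPJ at the locus was thus paired with SOX2 more often than in the whole list, while the share of SOX2 summits with RBPJ had an interval that reached the value of the whole list. The RBPJ list of the whole genome holds many promoters, and among summits over 5 kb from any protein-coding TSS the share was 73.1% around MYC and 55.2% in all, a setting added after the data were seen. In that setting the share of SOX2 summits with RBPJ was 67.3% (57.3 to 76.3%) against 53.9%, so that its interval no longer reached the value of all such summits. Paired RBPJ summits had a median fold of 5.22 and unpaired ones of 3.66, and in the whole list 5.67 and 4.82.

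The nearest case inside the distance was 398 bp and the nearest outside 519 bp, and 2 summits of each list lay between 500 and 600 bp. Ranked by SOX2 fold, the strongest pairs stood 520 kb upstream in CASC19 (SOX2 fold 27.2, RBPJ fold 8.07), 700 kb upstream in PCAT1 (SOX2 fold 26.6, RBPJ fold 9.54) and 196 kb downstream in PVT1. The pair 66.4 kb upstream had the highest RBPJ fold (23.1), with a SOX2 fold of 14.7. SOX2 summits without RBPJ in that list were lower, with a median fold of 4.30 against 7.18. The strongest of them, 1972 kb downstream (fold 14.0), had an RBPJ summit of MB157R iEV 519 bp away, in an overlapping region, and one of iN1-ICD within 500 bp. The next lay 1615 kb upstream (fold 9.74) with no RBPJ nearby in any list, and the third, 155 kb downstream in PVT1 (fold 7.78), had RBPJ nearby in MB157 iSOX2.

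In MB157 iSOX2, 41 of 56 RBPJ summits (73.2%, 59.7 to 84.2%) had an HA-SOX2 summit within 500 bp, against 47.1% of the whole RBPJ list. Of the 158 HA-SOX2 summits, 41 (25.9%, 19.3 to 33.5%) had RBPJ nearby, against 15% of all HA-SOX2 summits. Induced SOX2 and RBPJ were thus paired more often around MYC than over all chromosomes, from either side. HA-SOX2 summits near RBPJ had a median fold of 10.4 and the others of 4.79, whereas in the whole list these medians were 5.88 and 6.02. When both lists were cut to the same length, 31 of 56 RBPJ summits (55.4%) had HA-SOX2 nearby, against 17.3% of the shortened list.

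**Figure D4:**
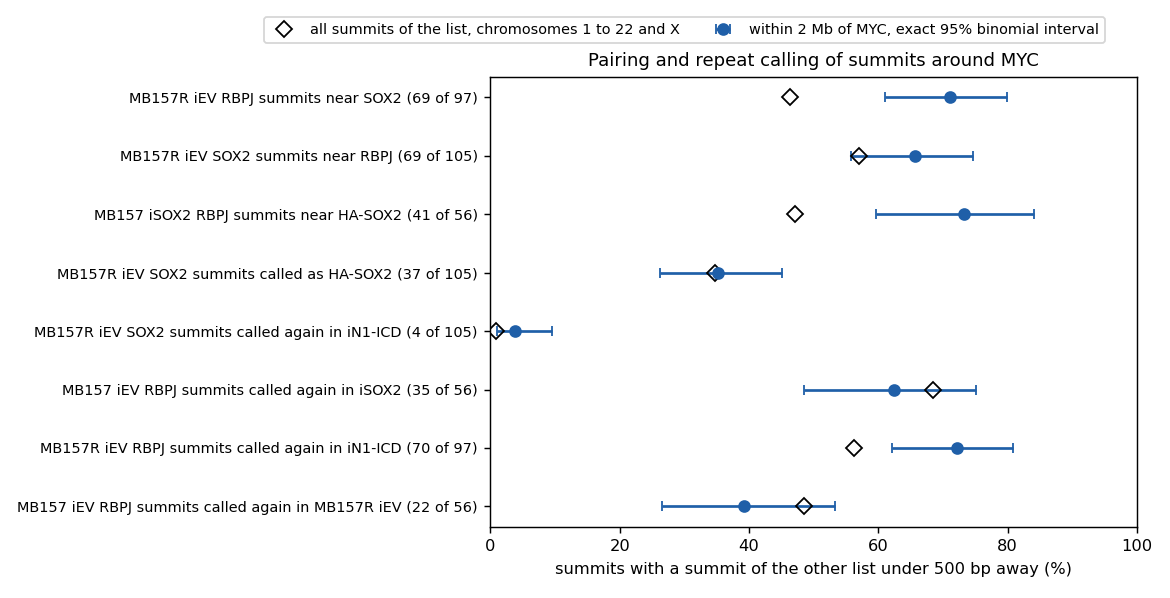
Blue points are the shares of summits within 2 Mb of MYC that have a summit of the other list less than 500 bp away, with exact 95% binomial intervals, and open diamonds are the same shares over all summits of the list. The MYC intervals lie above the diamonds for RBPJ near SOX2 in MB157R iEV, for RBPJ near HA-SOX2 in MB157 iSOX2, for RBPJ called again in iN1-ICD and for SOX2 called again in iN1-ICD, and they include the diamonds elsewhere. The share of SOX2 called again rests on 4 summits.

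The comparison of MB157 iEV with iSOX2 asked what induced SOX2 does to RBPJ at the locus. Of 56 RBPJ summits in iEV, 35 (62.5%, 48.5 to 75.1%) were called again in iSOX2, against 68.5% in the whole list. Of the 56 in iSOX2, 35 had been called in iEV, against 50% in the whole list. Thus 21 summits were seen in each condition alone, and they were weak. The strongest of those seen in iEV alone had fold 5.55, 1.25 kb upstream of the TSS. It was among the 4 of the 21 that overlapped a peak region of iSOX2, in its case the MYC promoter region. The strongest of those seen in iSOX2 alone was 322 kb downstream in PVT1 (fold 6.82, 41 fragments), at the highest HA-SOX2 peak of the window (fold 92.0, 602 fragments). HA-SOX2 was near 31 of the 35 summits called in both lists, 5 of the 21 of iEV alone and 11 of the 21 of iSOX2 alone. Over all chromosomes these shares were 54.0%, 28.1% and 40.0%.

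Among the 36 sites called in both, the scaled fragments of iSOX2 were 0.388 to 3.50 times those of iEV, with a median of 0.913. The interval lay below 1 at 5 sites and above 1 at 2, which is a count without adjustment for the number of sites. The drops were at the sites 66.4, 344, 683 and 452 kb upstream and 2.70 kb upstream. The site with the largest rise was 257 kb upstream, in an intron of CASC8, where RBPJ went from 27 to 120 fragments (fold 5.00 and 16.3, ratio 3.50, 2.29 to 5.53) and HA-SOX2 held 473 fragments (fold 63.3). The other was 441 kb upstream, from 48 to 104 fragments (ratio 1.71, 1.20 to 2.46), with HA-SOX2 at 391 fragments (fold 55.5). At the MYC promoter the counts were 77 and 86. The strongest RBPJ site of the locus thus had fewer fragments in iSOX2. HA-SOX2 was high at the 2 sites with more RBPJ fragments and, of the 5 sites with fewer, at the site 452 kb upstream (ratio 0.715, 0.596 to 0.857). It was also high at sites whose interval included 1. Among them were those 364 kb (HA-SOX2 fold 66.9, RBPJ ratio 1.04, 0.774 to 1.41), 697 kb (fold 68.4, ratio 1.41, 0.881 to 2.31) and 28.2 kb upstream (fold 31.6, ratio 0.879, 0.651 to 1.19). High HA-SOX2 was thus not particular to the sites with more RBPJ. At the other sites with fewer its fold was 10.3 (66.4 kb upstream), 7.85 (683 kb upstream) and 3.20 (344 kb upstream). No HA-SOX2 summit lay within 500 bp of the site 2.70 kb upstream, but the broad HA-SOX2 region of the MYC promoter covered it.

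The comparison of MB157R iEV with iN1-ICD asked what NOTCH1 does in resistant cells. Whether GSI was present during the 72 h of doxycycline is not given in the sources used here, and the construct is listed as NOTCH1 without its extracellular part, a form that γ-secretase still cuts. Few SOX2 peaks of the locus were called in iN1-ICD. Of 105 SOX2 summits in iEV, 4 (3.81%, 1.05 to 9.47%) were called again, against 0.796% of the whole list, which fell from 37963 to 323 peaks. At −log10 q values from 5 up in both lists it was 2 of 89 (2.25%, 0.273 to 7.88%) against 0.707%, and in lists of equal length 3 of 7 against 36.2%, so that both intervals included the value of the whole list. The 4 were 700 kb upstream (fold 26.6 to 7.07, 143 to 33 fragments), 520 kb upstream (fold 27.2 to 4.40, 146 to 22 fragments), 441 kb upstream (fold 17.3 to 6.39, 144 to 29 fragments) and 173 kb downstream (fold 16.5 to 3.63, 85 to 16 fragments). At these sites the scaled fragments of iN1-ICD were 0.170 to 0.260 times those of iEV, with all 4 intervals below 1. All of them still had RBPJ within 500 bp in both lists of MB157R. Of the 101 summits that were not called again, 85 would have held at least 16 fragments at the depth of the iN1-ICD list, the count of its weakest peak here. Around MYC the 4 remaining peaks were more than around 99.2% of protein-coding genes, of which the median had 0.

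Most RBPJ summits were called again. Of 97 RBPJ summits in MB157R iEV, 70 (72.2%, 62.1 to 80.8%) were called again in iN1-ICD, against 56.3% of the whole list. Of the 101 in iN1-ICD, 70 (69.3%) had been called in iEV, against 70.7%. The summits called in both had a median fold of 6.29 in iEV and those of iEV alone 3.51, none of the latter above 5.22. SOX2 of MB157R iEV was near 57 of the 70 summits in both lists, 12 of the 27 of iEV alone and 8 of the 31 of iN1-ICD alone, and over all chromosomes near 55.4%, 34.8% and 23.3%. The strongest summit of iN1-ICD alone was 51.4 kb upstream (fold 9.68, 49 fragments). RBPJ had been called there in MB157 iEV (fold 8.94) and iSOX2 (fold 6.56), and like the site 452 kb upstream it was seen in every RBPJ list except MB157R iEV.

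Among the 71 sites called in both, the scaled fragments of iN1-ICD were 0.529 to 1.65 times those of iEV, with a median of 0.873, and the interval lay above 1 at 5 sites and below 1 at 5. The rises were at 66.4 kb and 1301 kb upstream, 525 kb upstream in CASC19, and 65.5 and 164 kb downstream in PVT1. The drops were at 119 and 196 kb downstream in PVT1, 520 kb upstream in CASC19, 911 kb upstream in PCAT1, and at LRATD2. At 4 of these 5 places with a drop the SOX2 peak of MB157R iEV was no longer called in iN1-ICD, and at the fifth, 520 kb upstream, it was called with 22 fragments. At 3 of the 5 places with a rise, 66.4 and 525 kb upstream and 164 kb downstream, a SOX2 peak of MB157R iEV was likewise not called in iN1-ICD. Loss of the SOX2 call was general, as 101 of the 105 SOX2 summits around MYC were not called again. Over all chromosomes 0.796% were called again, so these counts do not set the changed sites apart. A part of SOX2 in the RBPJ changes was not tested.

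**Figure D5:**
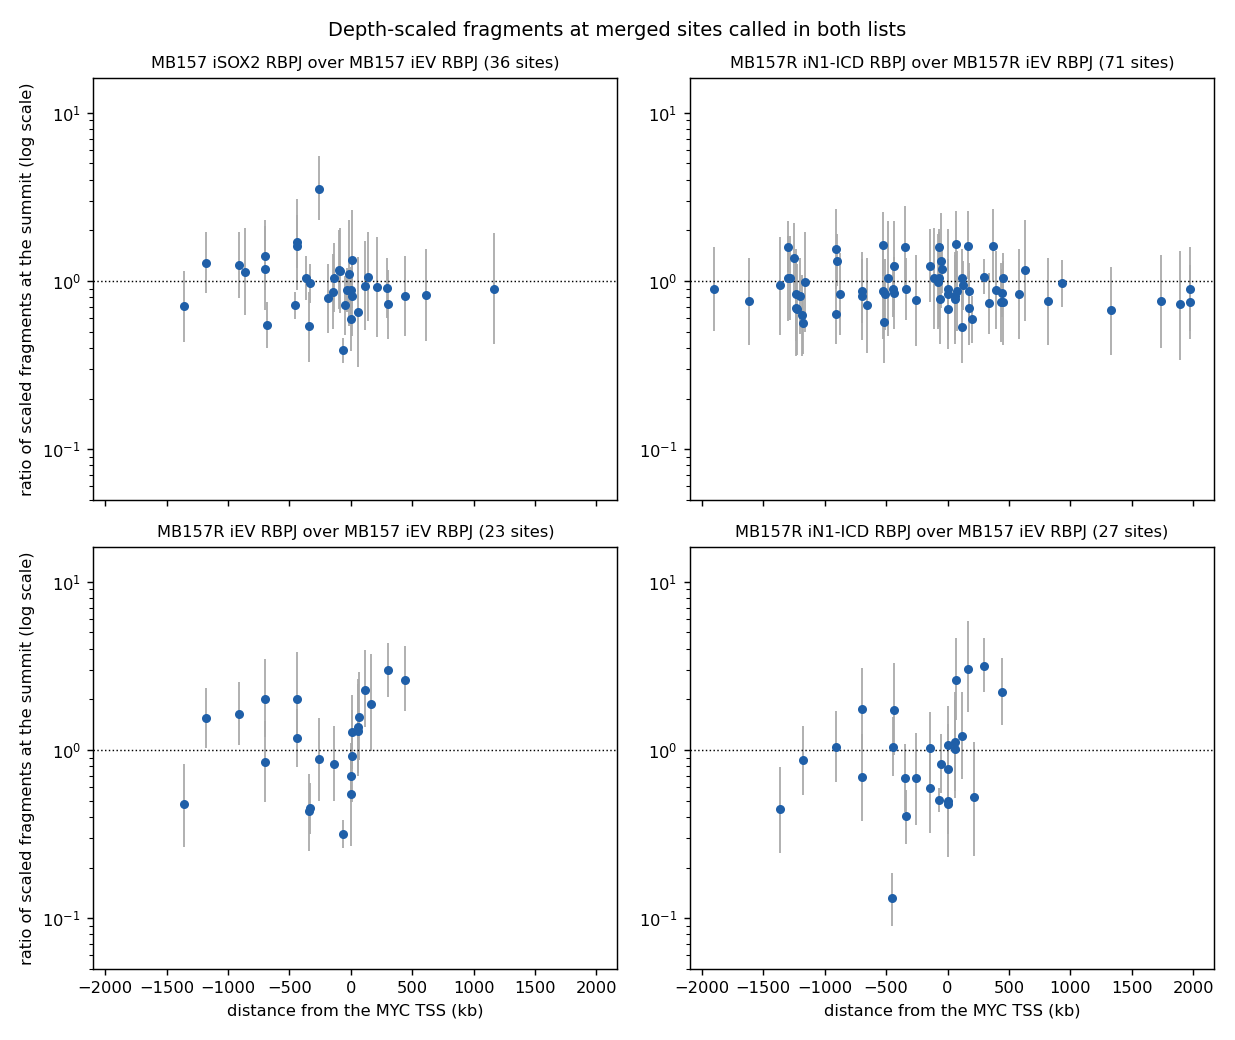
Each point is a merged site called in both lists of a panel, with its distance from the MYC TSS in kb on the x axis and the ratio of fragments at the summit, scaled by the genome background of each list, on a log y axis. Grey bars are exact 95% intervals for counting error, and the dotted line is a ratio of 1. The range is 0.388 to 3.50 for iSOX2 over iEV, 0.529 to 1.65 for iN1-ICD over iEV, 0.319 to 2.97 for MB157R iEV over MB157 iEV, and 0.131 to 3.16 for MB157R iN1-ICD over MB157 iEV.

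Parental and resistant cells with the empty vector shared a part of their RBPJ sites around MYC that was near the genome-wide one. Of 56 summits in MB157 iEV, 22 (39.3%, 26.5 to 53.2%) were called in MB157R iEV, against 48.6% of the whole list. Of 97 in MB157R iEV, 22 (22.7%, 14.8 to 32.3%) had been called in MB157 iEV, against 26.2%. With NOTCH1 induced, 26 of the 56 MB157 iEV summits (46.4%, 33.0 to 60.3%) were called, against 44.2%. Each of these intervals includes the value of the whole list. All 34 summits not found in MB157R iEV would have reached at least 14 fragments at its depth, the count of its weakest peak in the window. Every MB157 iEV summit of the window would, since the smallest held 13 and the depth ratio was 1.14, so this count cannot set depth aside. Of the 34, 13 would have reached 28 fragments, the median of the MB157R iEV peaks there. SOX2 of MB157R iEV was near 16 of the 22 shared summits and 3 of the 34 of MB157 alone, and near 53 of the 75 of MB157R alone. In the whole list these shares were 39.3%, 6.88% and 48.6%. Among the 23 shared sites the interval of the scaled ratio was below 1 at 5 and above 1 at 7. The lower ones were at MYC itself and 66.4, 334, 344 and 1360 kb upstream. The higher ones were 438, 700, 911 and 1178 kb upstream, with ratios of 1.54 to 2.02, and in PVT1 119, 300 and 442 kb downstream, with ratios of 2.28 to 2.97. At 1178 kb upstream the summits of the lists lay over 500 bp apart and were joined through other lists. That site (ratio 1.54) is thus not among the 22 shared summits. Lower and higher ratios were thus mixed upstream.

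Induced HA-SOX2 in parental cells and SOX2 in resistant cells shared a minority of their sites at the locus. Of 105 SOX2 summits in MB157R iEV, 37 (35.2%, 26.2 to 45.2%) had an HA-SOX2 summit nearby, against 34.7% of the whole list. Of 158 HA-SOX2 summits, 37 (23.4%, 17.1 to 30.8%) had SOX2 nearby, against 12.2%. Both were called at 39 sites. The antibodies differ, so only the order of sites within each list can be compared. The first 2 sites of SOX2, 520 and 700 kb upstream, had HA-SOX2 folds of 2.35 and 13.7. Conversely, the HA-SOX2 sites 697 kb upstream (fold 68.4) and 257 kb upstream (fold 63.3) had SOX2 folds of 13.6 and 6.39, and those at 322 kb downstream (fold 92.0), 364 kb upstream (fold 66.9) and 757 kb upstream (fold 66.4) had no SOX2 peak in MB157R iEV.

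The DNA within 100 bp of each summit was searched on both strands of hg38 for the RBPJ motif (TGTGGGAA, CGTGGGAA, TGTGAGAA or CGTGAGAA), for a SOX motif (CAAAG or CAATG after a pair of letters that are each A or T) and for the AP-1 motif (TGACTCA or TGAGTCA). AP-1 is the FOS and JUN dimer, a common factor of enhancers. The SOX motif was at 92 of 158 HA-SOX2 summits (58.2%, against 51.9% of the whole list) and 43 of 105 SOX2 summits of MB157R iEV (41.0%, against 34.3%). At RBPJ summits of the locus it was at 32.1% in MB157 iEV, 28.6% in iSOX2, 28.9% in MB157R iEV and 28.7% in iN1-ICD, against 14.2% to 15.6% of the whole lists, and all 4 intervals lay above these values. Within 50 bp the interval included the value of the whole list in iSOX2 (14.3%, 6.38 to 26.2%, against 8.19%) and MB157R iEV (13.4%, 7.33 to 21.8%, against 7.71%), and lay above it in the other 2 lists. The window holds few promoters, and base composition was not matched.

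The RBPJ motif was at 11 of 56 RBPJ summits in MB157 iEV (19.6%, 10.2 to 32.4%, against 13.9%), 10 of 56 in iSOX2 (17.9%, against 12.2%), 12 of 97 in MB157R iEV (12.4%, against 9.40%) and 13 of 101 in iN1-ICD (12.9%, against 12.0%). These shares did not differ from the whole lists beyond their intervals. The AP-1 motif was at 12.5% and 8.93% of the RBPJ summits of MB157 iEV and iSOX2, and at 28.9% and 22.8% of those of MB157R iEV and iN1-ICD, against 4.74%, 4.58%, 18.5% and 17.0% of the whole lists. The interval lay above the value of the whole list in MB157 iEV (5.18 to 24.1%) and MB157R iEV (20.1 to 39.0%). It included that value in iSOX2 (2.96 to 19.6%) and iN1-ICD (15.0 to 32.2%). Within 50 bp it included the value of the whole list in every RBPJ list but iSOX2 (8.93% against 2.27%), and MB157 iEV fell to 3.57% against 2.32%. The AP-1 motif was at 35.2% of the SOX2 summits of MB157R iEV (31.0% of the whole list) and 7.59% of the HA-SOX2 summits of MB157 (5.54%). The site 441 kb upstream held all 3 motifs near its RBPJ summit in MB157 iEV, iSOX2 and MB157R iEV. So did the site 931 kb downstream, near its RBPJ summits in both lists of MB157R and near its SOX2 summit.

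LRATD2 is one of the other protein-coding genes of the window. A site at the start of the gene, 1178 kb from MYC, had RBPJ in all 4 lists, with folds of 9.55 in MB157 iEV, 12.0 in iSOX2, 14.7 in MB157R iEV and 7.86 in iN1-ICD, beside SOX2 (fold 3.86) and HA-SOX2 (fold 5.36). The summits of MB157 iEV and iSOX2 lay just outside the 1 kb on either side of the LRATD2 TSS that was taken as its promoter, and the others inside it. POU5F1B, a retrogene related to the stem cell factor OCT4, had no summit within 1 kb of its TSS in any list. In its gene body lay 4 RBPJ summits in MB157 iEV and 10 HA-SOX2 summits.

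The MYC network is the set of proteins that dimerize with MAX, as MYC does, or with its relative MLX. Of 13 such genes, the count with an RBPJ summit within 1 kb of the TSS was 7 in MB157 iEV, where 38% of all protein-coding genes had one, 7 in iSOX2 (50.4%), 9 in MB157R iEV (56.1%) and 7 in iN1-ICD (43%). SOX2 in MB157R iEV was at 3 of the 13 (21.8%), at 0 in iN1-ICD (0.0751%), and HA-SOX2 at 8 (34%). MYC was the only member with RBPJ, SOX2 of MB157R iEV and HA-SOX2 in every list but SOX2 of iN1-ICD. MAX, the partner, had RBPJ in iSOX2 (fold 3.29), MB157R iEV (6.15) and iN1-ICD (3.46), SOX2 (4.06) and HA-SOX2 (4.63). MYCL, a relative of MYC, had RBPJ in all 4 lists (7.77, 7.85, 12.3 and 8.66), and MYCN, the neuronal relative, in MB157 alone (9.22 and 5.21). MXD1, an antagonist of MYC, had HA-SOX2 with fold 19.5 and no RBPJ, and MXD4 and MLXIPL had no promoter summit in any list.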

How the data were processed

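The data were 8 lists of ChIP-seq peaks. The authors aligned trimmed paired-end reads to hg38 with BWA, pooled the replicates of a group and called narrow peaks against input with MACS2 at an FDR of 0.05. The deposited columns are other values (peak start, end and summit), a score, the ratio (fold enrichment at the summit over local background), and the −log10 p. The score, 10 times the −log10 q without decimals, served only for stricter lists. Fold and −log10 p were solved for the whole number of fragments at the summit and the local background, with 1 added to both in the fold, which worked for 100% of peaks and was tested on simulated data. The genome background is the smallest local background of a list. Only chromosomes 1 to 22 and X were used, and no peak ran past the end of its hg38 chromosome.

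No test across genes or sites was made. Shares have exact binomial (Clopper-Pearson) 95% intervals and fragments exact Poisson intervals. Ratios of fragments have exact binomial intervals multiplied by the ratio of genome backgrounds, not adjusted over sites. A count of 0 allows up to 3. Sites named were the MYC promoter, the 5 highest peaks of each list, the 3 highest of each class of kept, lost, gained, paired and unpaired summits, those called in most lists and the SOX2 peaks of iN1-ICD. Other sites were named after their values were seen, most because the interval of a ratio excluded 1. The members and lists were chosen with earlier results of these data known. Genes came from GENCODE 44. Scripts ran in Python 3.11.15 with scipy 1.17.1, pandas 2.3.3, numpy 2.4.6 and matplotlib 3.10.9.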

Additional observations from a re-analysis of the deposited data

How the results depend on the processing

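Of the 8 shares of summits near or called again in another list, 44 of 56 alternatives stayed inside the interval of the reported value. A distance of 100 bp moved 7 of the 8, to 44.3% (RBPJ near SOX2 in MB157R iEV), 41.0% (SOX2 near RBPJ), 35.7% (RBPJ near HA-SOX2), 23.8% (SOX2 called as HA-SOX2), 0.952% (SOX2 called again in iN1-ICD), 44.6% (MB157 iEV RBPJ in iSOX2) and 48.5% (MB157R iEV RBPJ in iN1-ICD). Lists of equal length moved RBPJ near HA-SOX2 to 55.4%, SOX2 called as HA-SOX2 to 20%, MB157R iEV RBPJ in iN1-ICD to 84.0%, and SOX2 called again in iN1-ICD to 42.9%, with 3 of only 7 summits left. A −log10 q of at least 5 moved MB157R iEV RBPJ in iN1-ICD to 85.7%. The share of parental RBPJ called in MB157R iEV (39.3%) stood below the whole list's 48.6%, but for summits over 5 kb from every protein-coding TSS, added after the data were seen, it was 40% against 36.4%. The 138 SOX2 and HA-SOX2 summits with a SOX motif fell to 88 within 50 bp. The interval of SOX2 near RBPJ, which included the value of the whole list, lay above it under 100 bp, within 1 Mb, at equal length and for distal summits. That of SOX2 called again in iN1-ICD, which lay above, included it under 100 bp, at a −log10 q of at least 5 and at equal length. The counts of 577 peaks and 41 network promoters, each summed over lists, and of 285 sites stayed within 1.5 times under every alternative. Single lists moved more. With 5 kb in place of 1 kb, RBPJ went from 7 to 12 network genes in MB157 iSOX2 (60.2% of all protein-coding genes). In MB157R iN1-ICD RBPJ went from 7 to 11 (53.2%), and SOX2 of MB157R iEV went from 3 to 6 (32.2%). The SOX2 peaks of iN1-ICD went from 4 to 2 at a −log10 q of at least 5.

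No paired analysis was possible because peaks were called on pooled libraries, and no library was left out for the same reason. An absent peak is limited by depth: of the 101 SOX2 summits not called in iN1-ICD, 85 would have reached the count of its weakest peak here at matched depth. No measurement of contact or expression assigned these peaks to MYC.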
